A study of Sus scrofa with 6 samples.

Results

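The mitochondrial ribosomal protein genes were taken as the rows of the deposited gene table whose symbol starts with MRPL or MRPS followed by a number. This rule found 63 of the 24358 genes, all of them protein coding and each symbol present once, and it used no measured value. By what is known of the human mitoribosome, 41 of them encode proteins of the large subunit and 21 of the small subunit. MRPS36 is the remaining gene. It carries the symbol KGD4 in the gene name reference, and its product is known in human cells as an adaptor of the 2-oxoglutarate dehydrogenase complex, so it is described apart. MRPS30 and MRPS18A are counted with the large subunit, where human structures place their products despite the names.

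RNA was measured in jejunum, the stretch of small intestine between duodenum and ileum, from weaned piglets of a Large White and Landrace cross that the labels call healthy. The control group, labelled "No transport", has 3 libraries and the group labelled "transport" has 3, all from RNA extracted with Trizol. The title speaks of a short distance. Whether each library stands for its own animal is not stated, and p-values therefore reflect a spread among libraries that could be partly technical.

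Mitoribosomes are the ribosomes of the mitochondrial matrix. They translate the few proteins that the mitochondrial genome encodes, all of them core subunits of the respiratory chain and of ATP synthase. The ribosomal RNAs come from the mitochondrial genome, while every protein of both subunits is made from a nuclear gene, translated in the cytosol and imported. The small subunit reads the messenger RNA, and the large subunit joins the amino acids and feeds the chain into the inner membrane. In the intestinal epithelium, absorptive cells rely on mitochondria for transport and lipid handling, and mitochondrial activity is known to differ between crypt and villus cells.

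Library totals ran from 48208451 to 53739246 counts, and 12012 genes had at least 1 FPKM (counts scaled to transcript length and library size) in at least 3 of the 6 libraries and were tested. Transport 3 was the library least like the others: its median correlation with them in TMM-scaled log2 CPM (CPM being counts scaled to the library total, and TMM edgeR's correction for library composition) was 0.818, where the remaining libraries had 0.888 to 0.930. FABP6, the bile acid binding protein of the ileum, the last part of the small intestine, reached 6836 FPKM there, and the other 5 libraries held 2.83 to 13.8 FPKM. The ileal enterocyte markers SLC10A2 and CUBN were at 15.5 and 19.0 FPKM there and at most 1.25 and 0.032 FPKM elsewhere. GUCA2A, also of that list, was at 280 FPKM there and at 270 FPKM in control 1. The sum of 8 smooth muscle markers was at 270.0 CPM in control 2 and at 5042 to 13044 CPM elsewhere. The sum of 10 enterocyte markers was 8955 CPM in transport 3, the lowest, and 36297 CPM in control 1, the highest. That list went both ways, with 7 genes lower after transport as fitted and 3 higher. FABP1, FABP2, APOA4 and CDH1 were lower without overlap between the groups, and ANPEP was higher without overlap. SI and ANPEP were above every control in transport 3, at 99.9 and 1064 FPKM.

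Counts were ample for all 63 genes, although overlap with other genes makes some of them uncertain. Each passed the filter on level, and the lowest count of any of them in any library was 415. Their mean FPKM over the 6 libraries ran from 3.20 for MRPS28 to 56.3 for MRPL24, with a median of 16.3, and 50 genes had a mean of at least 10 FPKM. The 6 highest were MRPL24, MRPS18A, MRPL12, MRPL11, MRPL27 and MRPS34. MRPL24, a core protein of the large subunit, had 46.0, 73.7 and 62.4 FPKM in controls 1 to 3 and 54.6, 49.8 and 51.3 after transport. MRPS18A, a protein related to bacterial S18 that human structures place in the large subunit, had 56.1, 54.8 and 52.1 FPKM in controls 1 to 3 and 63.6, 53.5 and 33.9 after transport. MRPL12, which forms the stalk that recruits translation factors and is present in several copies per ribosome, had 44.2, 47.5 and 45.8 FPKM in controls 1 to 3 and 63.8, 34.2 and 26.6 after transport. All 3 genes overlapped between the groups, and transport 1 held the highest value of MRPS18A and MRPL12 while transport 3 held the lowest.

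The other S18 relatives lay lower on the FPKM scale. MRPS18B, of the small subunit, had 28.7, 32.4 and 35.7 FPKM in controls 1 to 3 and 45.7, 37.8 and 30.5 after transport, and MRPS18C, the nearest relative of bacterial S18, had 3.48, 3.96 and 3.40 FPKM in controls 1 to 3 and 3.32, 3.36 and 3.79 after transport. MRPS18C and MRPL34 were the steadiest of the 63 genes, with a ratio of highest to lowest FPKM of 1.19 each. That ratio had a median of 1.68 over the genes and reached 2 or more in 16 of them, with MRPS36 the most variable at 2.59. Between samples of a group, the SD of TMM-scaled log2 CPM had a median of 0.26 over these genes and of 0.49 over all genes tested. These sets were not matched for level.

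The study asked how gene expression in the jejunum differs after transport. As fitted, 52 of the 63 genes (82.5%) were lower after transport and 11 were higher, where 43.1% of all genes tested were lower as fitted. Their log2 fold changes, transport against control, had a median of -0.20 with quartiles of -0.38 and -0.05, against a median of 0.07 over all genes tested. None of the 63 passed edgeR's quasi-likelihood test at an adjusted p of 0.05, a threshold that 0.0167% of all genes passed (2 of 12012, both higher). The smallest adjusted p among the 63 was 0.890 in edgeR, and DESeq2 called none of them either, against 0.416% of all genes. At an unadjusted p under 0.05 there was 1 gene of the 63, MRPS34, which was lower, where 1.61% of all genes were lower by that rule.

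Within the spread among these libraries, the fit limits the size of a difference for most of the genes. The intervals are per gene and not adjusted, and they could be too narrow if that spread is partly technical. The 95% interval of the log2 fold change lay within 1 of 0, that is, within a 2-fold change in either direction, for 41 of the 63 genes. Over all 63 genes the lowest bound of an interval was -1.39, in MRPS14, and the highest bound was in MRPS36. The median was -0.36 without transport 1 and -0.13 without both control 2 and transport 3, with 50 and 45 of the 63 genes lower as fitted. In bulk tissue, fewer cells of a type and less RNA per cell cannot be told apart.

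**Figure D1:**
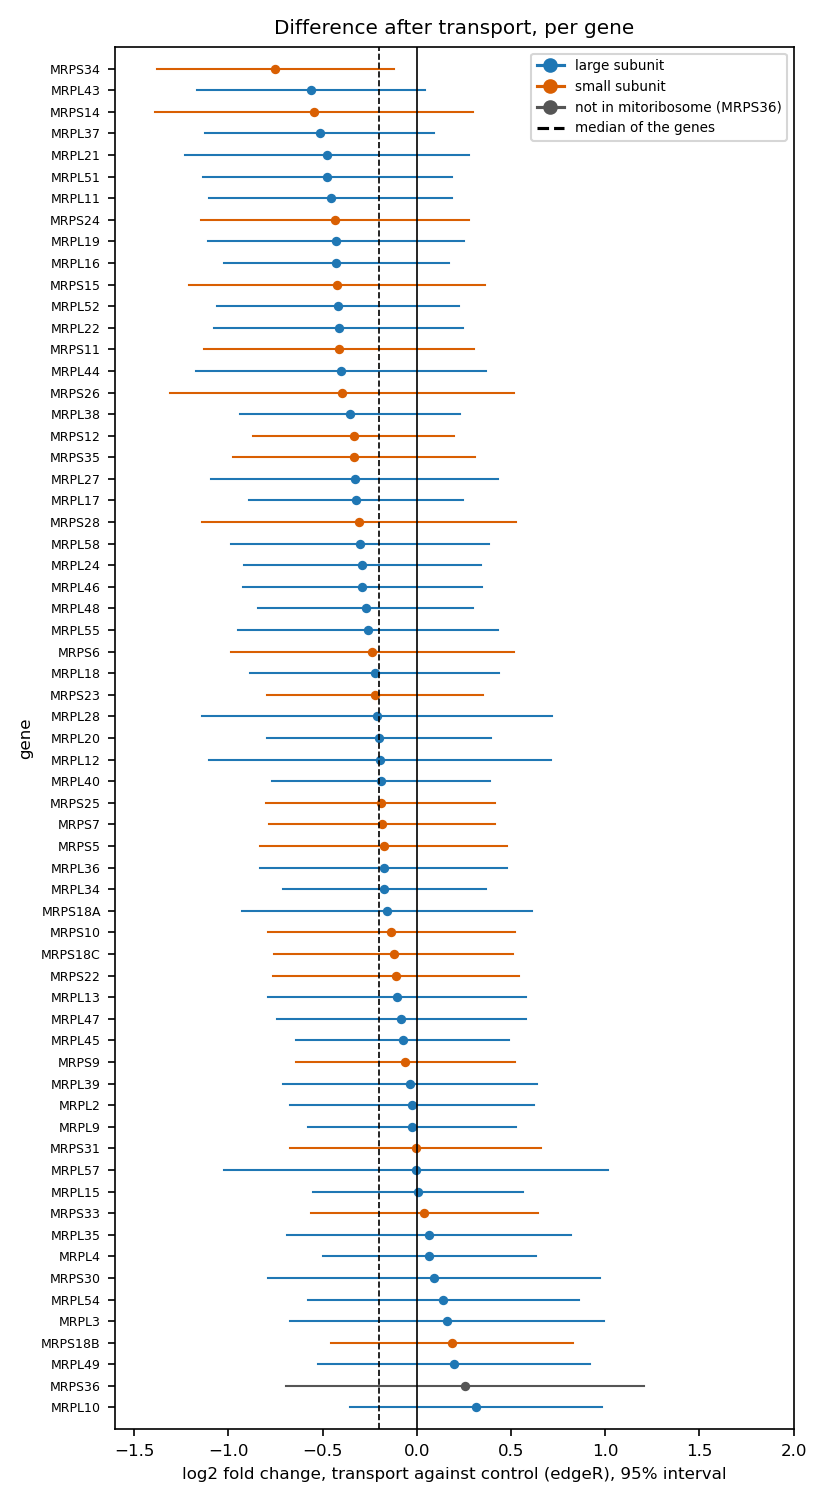
Log2 fold change of each of the 63 genes, transport against control, from edgeR's fit (points) with its 95% interval (lines), coloured by ribosomal subunit. The dashed line is the median of -0.20. The interval of MRPS34 alone excludes 0, and 52 of the 63 points lie left of 0.

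Groups did not overlap in FPKM for 6 of the 63 genes, all lower after transport: MRPS34, MRPS12 and MRPS14 of the small subunit and MRPL43, MRPL37 and MRPL16 of the large subunit. That is 9.52% of the genes, where 4.19% of all genes tested were lower without overlap. Of these genes, MRPS34, MRPL43, MRPL37 and MRPL16 share bases with another expressed gene, as described below, so their reads are uncertain. No gene of the 63 was higher without overlap, where 6.93% of all genes were. Leaving out a library can only keep or raise this count, since fewer values have to lie apart. It rose to 20 genes without control 1, to 26 without transport 1 and to 10 without transport 3. By the same rule 1145, 1368 and 1036 of the 12012 genes (9.53%, 11.4% and 8.62%) were lower without overlap. The count stayed at 6 without control 2, control 3 or transport 2, where 7.09%, 5.69% and 8.58% of all genes were lower without overlap. Leaving out both control 2 and transport 3 it was 11 of 63 (17.5%) against 13.6% of all genes.

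Among large subunit genes, MRPL43 had the smallest p. It encodes a protein with no bacterial counterpart and had 26.1, 22.0 and 26.6 FPKM in controls 1 to 3 and 16.4, 19.5 and 16.6 after transport. Transport 2, the highest of its group, lay below control 2, the lowest control. The group means were 24.9 ± 2.55 and 17.5 ± 1.73 (SD, n = 3 in each), and the log2 fold change was -0.56 (standard error 0.26, unadjusted p = 0.0639, adjusted p = 0.890, edgeR). The gene lies on chromosome 14 at 112068679 to 112070232 on the minus strand, in the coordinates of the table, whose build is not given in the sources used here. TWNK, which encodes the mitochondrial DNA helicase Twinkle, overlaps all 1554 bases of it on the opposite strand, and the use of strand in counting is not stated, so reads of the pair cannot be told apart. TWNK itself had a log2 fold change of 0.11.

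MRPL37, another protein specific to the mitochondrial large subunit, had 34.3, 43.0 and 51.4 FPKM in controls 1 to 3 and 32.7, 32.4 and 27.9 after transport. Controls 2 and 3 were well above all transport values, while control 1 was only slightly above transport 1. Its log2 fold change was -0.52 with an interval of -1.12 to 0.09. MRPL37 shares 650 bases with CYB5RL on the opposite strand, which had a mean of 31.4 CPM against 83.5 CPM for MRPL37. MRPL16, whose bacterial relative sits near the site that binds incoming transfer RNA, had 14.9, 15.3 and 21.6 FPKM in controls 1 to 3 and 13.1, 12.6 and 14.4 after transport. The distance between its groups was small, with transport 3 just under control 1, and the log2 fold change was -0.43 (interval -1.02 to 0.17). STX3 overlaps all 5018 bases of MRPL16 on the opposite strand, so the reads of MRPL16 are uncertain. The mean was 83.5 CPM for STX3 against 22.2 CPM for MRPL16.

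The other lower genes named for a small p, MRPL51 and MRPL11, overlapped between the groups. MRPL51, a protein specific to mitochondria, had 21.5, 32.9 and 30.8 FPKM in controls 1 to 3 and 24.9, 17.9 and 21.5 after transport. Control 1 lay below transport 1, and the log2 fold change was -0.47. MRPL11, which forms the base of the stalk, had 37.3, 46.6 and 53.1 FPKM in controls 1 to 3 and 41.9, 25.3 and 37.5 after transport. Here control 1 lay below transports 1 and 3, and the log2 fold change was -0.46.

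In the small subunit, MRPS12, whose bacterial relative S12 lines the decoding centre, had 24.7, 24.6 and 27.3 FPKM in controls 1 to 3 and 22.4, 19.5 and 21.6 after transport. The groups were close but apart, at 25.5 ± 1.51 and 21.2 ± 1.52 FPKM, and the log2 fold change was -0.34 (standard error 0.23, adjusted p = 0.890, edgeR). MRPS14, a protein of the small subunit head, had 4.45, 5.55 and 4.76 FPKM in controls 1 to 3 and 4.37, 3.68 and 2.41 after transport. Transport 3 was the lowest value by a wide margin, and transport 1 lay just below control 1. Its log2 fold change was -0.54 with an interval of -1.39 to 0.30.

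**Figure D2:**
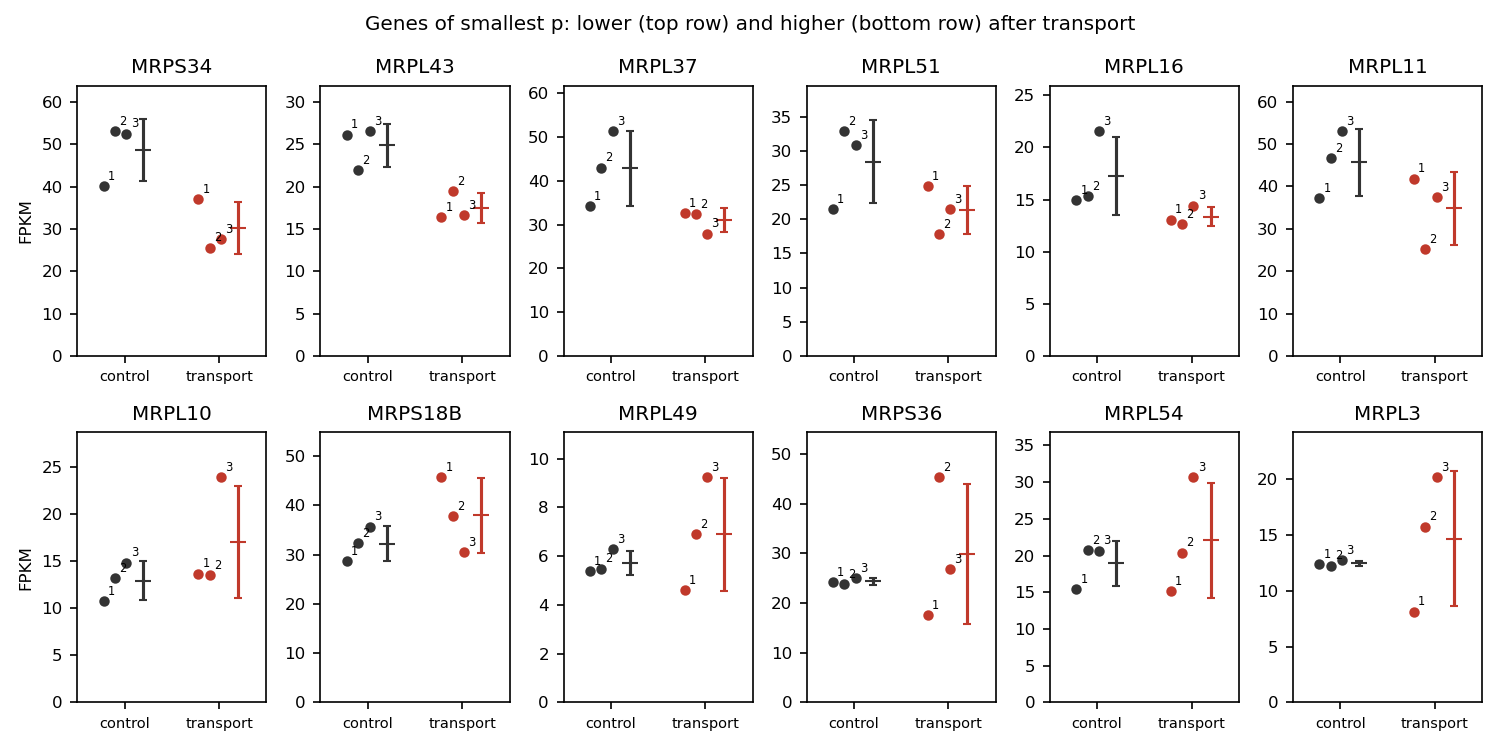
FPKM in each library (points, numbered by replicate) with the group mean and SD (bars at the right of each group, n = 3) for the 6 genes of smallest p that were lower as fitted (top row) and the 6 that were higher (bottom row). In the top row MRPS34, MRPL43, MRPL37 and MRPL16 do not overlap between the groups, and in the bottom row all 6 genes do.

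MRPS34 was the gene of smallest p of all 63. It encodes a small subunit protein with no bacterial counterpart, and inherited loss of it in humans impairs mitochondrial translation. It had 40.2, 53.2 and 52.5 FPKM in controls 1 to 3 and 37.1, 25.6 and 27.7 after transport. The lowest control, control 1, was close to transport 1, and transports 2 and 3 were well below. The means were 48.6 ± 7.31 and 30.1 ± 6.15 FPKM (SD, n = 3), and the log2 fold change was -0.75 (standard error 0.27, interval -1.38 to -0.12, unadjusted p = 0.0258, adjusted p = 0.890, edgeR). DESeq2 gave an adjusted p of 0.377.

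The value of MRPS34 is uncertain because other genes overlap it. MRPS34 lies on chromosome 3 at 40194070 to 40196863 on the plus strand, and NME3, a nucleoside diphosphate kinase gene, spans 40195628 to 40196869 on the same strand, with 1236 bases in common. NME3 had 3.17, 3.58 and 5.73 FPKM in controls 1 to 3 and 29.9, 13.3 and 9.34 after transport. It was higher after transport in all 3 libraries without overlap, at a log2 fold change of 2.03 (standard error 0.53, unadjusted p = 0.00681, adjusted p = 0.890, edgeR), the opposite direction to MRPS34. Counts of the pair together were 78.7, 103 and 104 CPM in controls 1 to 3 and 99.0, 60.2 and 60.8 after transport. In the sum, transport 1 lay above control 1 and close to controls 2 and 3, so the groups overlapped, while transports 2 and 3 stayed below all controls. The mean sum was 95.3 ± 14.4 CPM in controls and 73.4 ± 22.2 CPM after transport (SD, n = 3). On the opposite strand, MAPK8IP3 overlaps MRPS34 over 1215 bases, with a mean of 37.5 CPM against 74.0 CPM for MRPS34 and a log2 fold change of 0.34. How the counting divided reads among these genes was not tested.

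**Figure D3:**
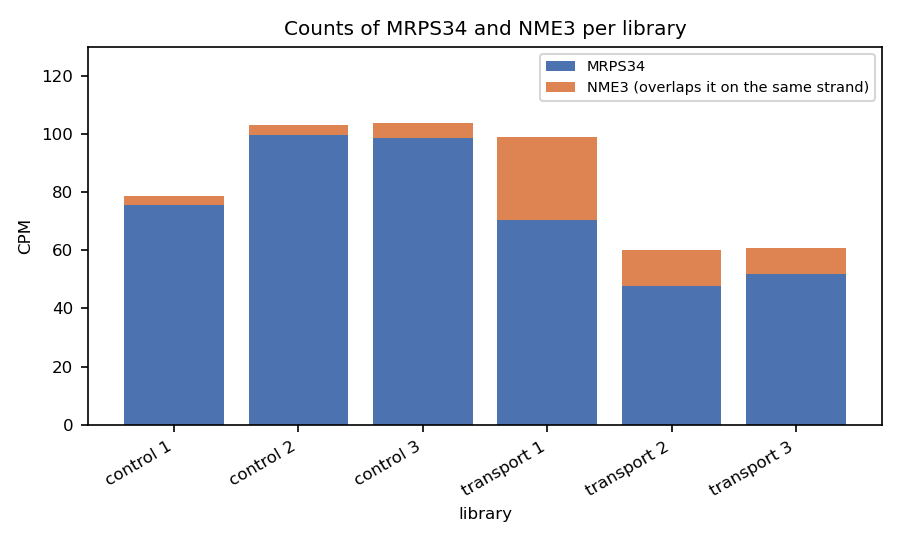
CPM of MRPS34 (lower bars) and of NME3, which overlaps it on the same strand (upper bars, stacked), in each library. NME3 holds 3.03 to 5.44 CPM in the controls and 8.86 to 28.6 CPM after transport, and with both genes stacked transport 1 reaches the range of the controls.

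Overlap with other genes was common in the family. Of the 63 genes, 36 overlap at least 1 other gene of the table and 29 overlap a gene with a mean of at least 1 CPM, most of them on the opposite strand. Among the 34 genes without such an expressed overlap, 27 were lower as fitted and none was called. The whole of MRPL44, MRPL54 and MRPS7 is shared with WDFY1, RAX2 and MIF4GD, on the opposite strand. These had means of 36.7, 32.8 and 49.5 CPM, against 21.0, 40.2 and 70.2 CPM for the members. MRPL51 shares 509 bases with NCAPD2 on the opposite strand, at 31.5 CPM against 139.8 CPM for NCAPD2. The 29 also include MRPL24, MRPL58, MRPS18A, MRPS18C and MRPS22.

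The 11 genes that were higher as fitted had small differences, and the 6 of smallest p all overlapped between the groups. MRPL10, the protein that anchors the stalk to the large subunit, had 10.7, 13.2 and 14.8 FPKM in controls 1 to 3 and 13.7, 13.6 and 23.9 after transport. Transport 3 alone exceeded all controls, and the log2 fold change was 0.32 with an interval of -0.35 to 0.98. MRPL10 overlaps SCRN2 on the same strand over all of its 7439 bases, so its reads are uncertain too. MRPL54, of the large subunit, had 15.4, 20.8 and 20.7 FPKM in controls 1 to 3 and 15.2, 20.4 and 30.6 after transport, and MRPL49 had 5.39, 5.48 and 6.27 FPKM in controls 1 to 3 and 4.59, 6.89 and 9.22 after transport. In both, transport 3 was highest and transport 1 lowest, and without transport 3 their log2 fold changes were -0.11 and -0.01. MRPL49 overlaps a pair of rows named SYVN1, an enzyme of protein quality control in the endoplasmic reticulum, on the opposite strand. Those rows had means of 188 and 556 CPM against 21.6 CPM for MRPL49.

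MRPL3, a large subunit protein near the peptidyl transferase centre, showed tight controls and scattered transport libraries. It had 12.3, 12.2 and 12.7 FPKM in controls 1 to 3 and 8.13, 15.7 and 20.1 after transport. Transport 1 was below every control and transports 2 and 3 above, and the log2 fold change was 0.16 (interval -0.67 to 0.99). MRPS36, the gene outside the ribosome, did the same with 24.2, 23.8 and 25.1 FPKM in controls 1 to 3 and 17.5, 45.3 and 26.8 after transport, led by transport 2. Without that library its log2 fold change was -0.27 in place of 0.26. MRPS18B, whose values are given above, was highest in transport 1, with a log2 fold change of 0.19.

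Other genes named for their roles or levels are MRPL58, MRPL44, MRPL27 and MRPS7, all with overlap between the groups. MRPL58, a peptidyl-tRNA hydrolase built into the large subunit that can rescue stalled ribosomes, had 10.9, 12.5 and 12.3 FPKM in controls 1 to 3 and 13.4, 8.61 and 8.22 after transport (log2 fold change -0.30). MRPL44, which carries a domain related to RNase III, had 9.04, 15.0 and 14.3 FPKM in controls 1 to 3 and 8.64, 7.87 and 14.2 after transport (log2 fold change -0.40). Transport 3 of MRPL44 sat among the controls while transports 1 and 2 were below all of them. MRPL27, whose bacterial relative reaches into the peptidyl transferase centre, had 42.2, 46.1 and 42.8 FPKM in controls 1 to 3 and 51.3, 26.1 and 31.8 after transport (log2 fold change -0.33). In MRPS7, a protein of the small subunit head, the 3 transport values were almost equal, with 9.47, 12.4 and 9.40 FPKM in controls 1 to 3 and 9.78, 9.55 and 9.56 after transport (log2 fold change -0.18). MRPS5, MRPS22 and the large subunit protein MRPS30 had log2 fold changes of -0.18, -0.11 and 0.09. MRPL41, MRPS2 and MRPS16, also chosen for their roles, were not analysed here.

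Both subunits had values on the same side. Of the 41 large subunit genes 33 were lower as fitted, with a median log2 fold change of -0.20, and of the 21 small subunit genes 19 were lower, with a median of -0.22. The summed CPM of large subunit genes divided by that of small subunit genes was 2.53, 2.44 and 2.48 in controls 1 to 3 and 2.62, 2.54 and 2.59 in transports 1 to 3. Every transport library was above every control, although transport 2 and control 1 were almost equal. This ratio was looked at after the fits, and with 3 libraries in each group a exact permutation test can give no p below 0.10. Together the 63 genes summed to a CPM of 2639, 3062 and 3132 in controls 1 to 3 and 3060, 2367 and 2557 in transports 1 to 3. By this measure transport 1 lay within the range of the controls, and transports 2 and 3 below all of them.

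The score of the family in a library, its mean log2 CPM after TMM scaling and after centring each gene over the 6 libraries, was -0.02, 0.22 and 0.14 in controls 1 to 3 and 0.03, -0.15 and -0.21 in transports 1 to 3. Control 1 lay below transport 1, so the groups overlapped. The scaling matters for this order: by the summed CPM above, which is not TMM-scaled, control 3 was above control 2 and transport 3 above transport 2, and the score has both pairs the other way round. Control 3 held the highest FPKM of 17 genes, transport 1 of 15, control 2 and transport 3 of 14 each, transport 2 of 2 and control 1 of 1. The lowest value was in transport 2 for 27 genes and in control 1 for 15.

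**Figure D4:**
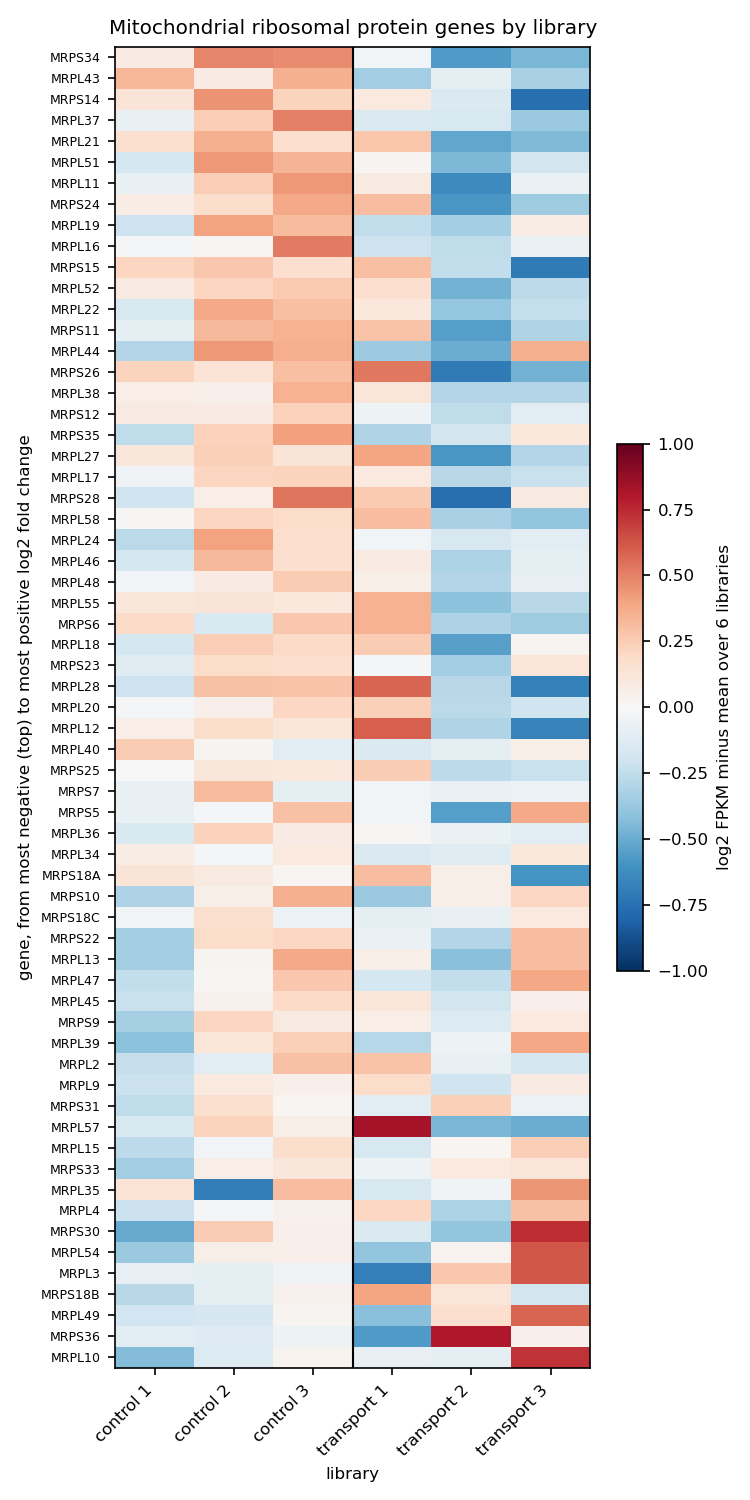
Log2 FPKM of each of the 63 genes minus its mean over the 6 libraries (colour), with genes ordered from the most negative log2 fold change at the top and the controls left of the line. Controls 2 and 3 are above the mean for most genes and transport 2 below for most, while control 1 and transport 1 are mixed. Transport 3 is low in most of the upper rows and holds the highest value of most genes in the lowest rows.

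The transport libraries did not move as 1 group against the controls. Transport 2 was below all 3 controls for 38 of the 63 genes (60.3%, against 31.3% of all genes tested), transport 3 for 27 (42.9%, against 28.2%) and transport 1 for 17 (27.0%, against 21.3%). Transports 2 and 3 were both below all controls for 26 genes (41.3%, against 11.4% of all genes), which is the count given above without transport 1. A pattern with transport 1 above every control and transports 2 and 3 below every control was held by 11 genes (17.5%, against 2.86% of all genes): MRPL12, MRPL20, MRPL27, MRPL28, MRPL55, MRPL57, MRPL58, MRPS6, MRPS15, MRPS25 and MRPS26. This pattern was looked for after the values had been seen, and it is a description of these libraries.

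MRPL57, a small protein specific to the mitochondrial large subunit, shows the pattern most clearly, with 31.9, 41.5 and 37.1 FPKM in controls 1 to 3 and 63.5, 25.9 and 25.3 after transport. Its log2 fold change was close to 0, with an interval of -1.02 to 1.02. MRPS26 had 15.3, 14.4 and 16.2 FPKM in controls 1 to 3 and 18.9, 8.02 and 9.46 after transport, and MRPL28 had 20.0, 28.2 and 28 FPKM in controls 1 to 3 and 34.6, 19.1 and 14.4 after transport. MRPL28 shares 9909 bases with TMEM8A on the same strand, which had a mean of 180.1 CPM against 141 CPM for MRPL28 and a log2 fold change of -0.71, so its reads are uncertain. MRPL57 overlaps SKA3 on the opposite strand over 254 bases. The opposite pattern, transport 1 below and transports 2 and 3 above every control, was held by MRPL3, MRPL49 and MRPS36 (4.76%, against 3.21% of all genes).

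Sums of crypt and goblet cell markers were also highest in controls 2 and 3. The crypt and stem cell markers EPHB2, OLFM4, SMOC2, SOX9, ASCL2 and LGR5 summed to 1703, 9383 and 8298 CPM in controls 1 to 3 and 2315, 1265 and 520.5 CPM in transports 1 to 3, most of it OLFM4. From high to low this sum runs control 2, control 3, transport 1, control 1, transport 2, transport 3. The TMM-scaled family score has that order too, but the family's summed CPM, on the same scale as the marker sum, runs control 3, control 2, transport 1, control 1, transport 3, transport 2. Other lists ran otherwise: the enterocyte sum was highest in control 1, and the smooth muscle sum was lowest in control 2. Within the crypt and stem cell list, only OLFM4 held the order of the sum. EPHB2 and SOX9 were highest in control 3, while SMOC2, ASCL2 and LGR5 were highest in control 1. The likeness in order between this sum and the family score therefore rests on OLFM4 and not on the list as a whole. It is a description and was not tested. All 6 crypt and stem cell markers were detected, 5 were tested and all 5 were lower as fitted, EPHB2 and SMOC2 without overlap between the groups. The 5 goblet cell markers summed to 519, 1804 and 1784 CPM in controls 1 to 3 and 1303, 773 and 384 CPM in transports 1 to 3, with transport 2 above control 1, and none of the markers was at 0. Of the myeloid list, LYZ, a lysozyme also made by secretory cells of the gut in other species, made up most of the sum and had 877, 3296 and 3447 FPKM in controls 1 to 3 and 785, 142 and 82.4 after transport, lower without overlap. The other 5 myeloid markers overlapped between the groups, with log2 fold changes of 0.58 for ITGAM, 0.59 for CSF1R, 0.37 for CD68, -0.03 for AIF1 and -0.15 for CD163. The B cell marker CD79B was at 186 FPKM in transport 3 and at most 2.97 FPKM elsewhere. The summed T and NK cell markers were 127, 123 and 113 CPM in controls 1 to 3 and 205, 242 and 259 CPM in transports 1 to 3, higher in every transport library. The part of any of these cells in the values of the ribosomal genes was not tested. Cell cycle markers were highest in transport 3, with 327, 509 and 664 CPM in controls 1 to 3 and 397, 287 and 2352 CPM in transports 1 to 3.

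**Figure D5:**
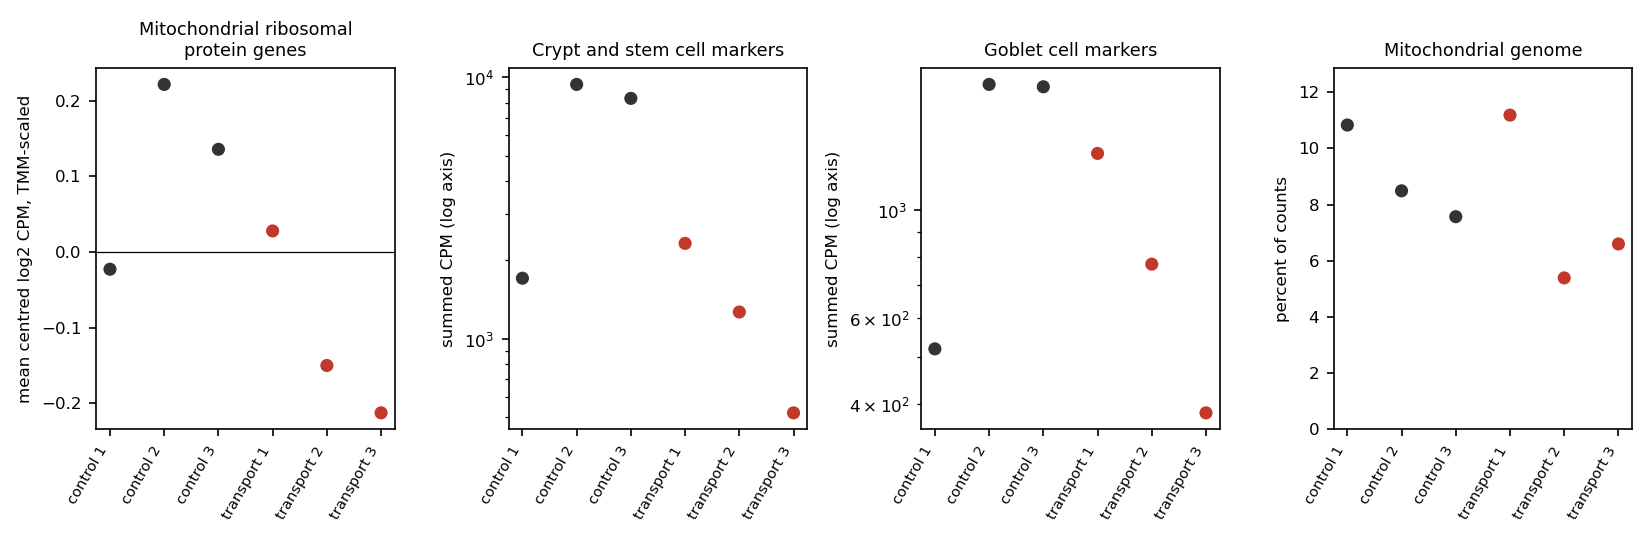
Values per library (controls in black, transport in red) of the family score in mean centred, TMM-scaled log2 CPM, of the summed CPM, not TMM-scaled, of crypt and stem cell markers and of goblet cell markers (log axes), and of the percent of counts in the 13 mitochondrially encoded protein genes. Controls 2 and 3 are highest in the first 3 panels and transport 3 lowest, and the mitochondrial genome share is highest in transport 1 and control 1.

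Transcripts of the mitochondrial genome, the templates of these ribosomes, had a percent of all counts of 10.83, 8.49 and 7.57 in controls 1 to 3 and 11.19, 5.39 and 6.60 in transports 1 to 3. All 13 protein genes were lower as fitted, with a median log2 fold change of -0.41, all overlapped between the groups and none was called. Control 1, low in the family score among the controls, had the highest mitochondrial genome share of that group. The cytosolic ribosomal protein genes, which serve the ribosomes of the cytoplasm, were lower as fitted in 56 of 61 tested, with a median of -0.17 and none called. These lists were fitted on the same 6 libraries and share their scaling.

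The other genes of mitochondrial translation were taken from lists by role. Of 5 ribosomal proteins without an MRP symbol, 2 were lower as fitted (AURKAIP1 at a log2 fold change of -0.30 and CHCHD1 at -0.15) and 3 higher (PTCD3, GADD45GIP1 and DAP3, at 0.04, 0.04 and 0.03). None of the 5 separated the groups. Of 25 tested assembly and RNA modification factors 14 were lower and 11 higher, with a median of -0.04 and no call. NOA1, a GTPase of ribosome assembly, had 6.91 ± 1.02 and 5.59 ± 0.301 FPKM, and METTL15, a methyltransferase of the small subunit RNA, was higher by 0.65 on the log2 scale as fitted, the only one of the list without overlap. RCC1L and TRMT61B had log2 fold changes of -0.32 and -0.36.

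Translation factors went both ways, with 6 of 17 lower as fitted, a median of 0.03 and none called. TUFM, the mitochondrial elongation factor Tu that delivers transfer RNA to the ribosome, had 70.2, 88.3 and 87.9 FPKM in controls 1 to 3 and 61.0, 50.1 and 53.0 after transport. Every transport value was below every control, and the log2 fold change was -0.65 (standard error 0.24, unadjusted p = 0.0315, adjusted p = 0.890, edgeR). SLIRP, which stabilises mitochondrial messenger RNA together with LRPPRC, had 78.5, 91.4 and 94.8 FPKM in controls 1 to 3 and 65.9, 53.3 and 72.9 after transport, also without overlap, at a log2 fold change of -0.53. LRPPRC itself had 5.44, 8.07 and 8.73 FPKM in controls 1 to 3 and 7.08, 10.3 and 20.5 after transport, with overlap, at 0.67. PTRH2, a peptidyl-tRNA hydrolase, was at -0.63. A further pair of factors was higher without overlap, MRRF, the ribosome recycling factor, at 5.46 ± 0.909 and 7.56 ± 0.822 FPKM (log2 fold change 0.41), and MTFMT, which formylates the initiator transfer RNA, at 9.10 ± 1.14 and 11.4 ± 0.271 FPKM (log2 fold change 0.26).

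Of 19 tested mitochondrial aminoacyl transfer RNA synthetases and amidotransferase subunits, 14 were lower as fitted, with a median of -0.15 and none called or free of overlap. EARS2, MARS2, AARS2 and GATC had the smallest p, with log2 fold changes of -0.52, -0.47, -0.42 and -0.37. Of 14 genes for mitochondrial transcription and its nuclear regulators, 6 were lower and 8 higher, with a median of 0.05 and none called. NRF1, a nuclear regulator of many mitochondrial genes, had 3.09 ± 0.382 and 4.30 ± 1.46 FPKM. POLRMT, the mitochondrial RNA polymerase, had 18.2 ± 2.21 and 15.4 ± 2.06 FPKM. MTERF1 and GABPB1 had log2 fold changes of 0.79 and 0.44, which lean on extreme values of single libraries. MTERF1 had 3.33, 0.307 and 3.20 FPKM in controls 1 to 3 and 3.25, 2.75 and 6.47 after transport. Control 2 was far below the other libraries, and transport 3 alone was above all controls. GABPB1 had 3.16, 4.07 and 4.40 FPKM in controls 1 to 3 and 3.09, 3.09 and 10.97 after transport. Here transports 1 and 2 lay below all controls and transport 3 above.

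A further 11 rows of the table carry no symbol but are described there as mitochondrial ribosomal proteins, namely L1, L14, L23, L30, L32, L33, L42, L50, S17, S21 and S27. They lie outside the rule and are given beside it. Of these, 10 were lower as fitted, with a median log2 fold change of -0.24 over the 11, none was called and none separated the groups. The row described as L33 was the exception, with 4.45, 4.91 and 6.43 FPKM in controls 1 to 3 and 4.67, 9.08 and 15.2 after transport and a log2 fold change of 0.79 (unadjusted p = 0.138, edgeR). Transports 2 and 3 exceeded all controls and transport 1 lay among them. With these rows added, 62 of 74 genes were lower as fitted, with a median of -0.22.

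Some of the genes start close to another gene that is read in the other direction. Within 1000 bases, 11 of the 63 have such a neighbour, and MRPL46 and MRPS11 are neighbours of each other, with starts 361 bases apart. MRPL46 had a log2 fold change of -0.29 and MRPS11 of -0.41, and both were highest in controls 2 and 3 and lowest in transport 2. MRPL46 had 21.5, 30.4 and 27.3 FPKM in controls 1 to 3 and 25.8, 19.5 and 22.7 after transport. MRPS11 had 7.85, 10.5 and 10.6 FPKM in controls 1 to 3 and 10.2, 5.71 and 6.80 after transport. MRPS12 starts 255 bases from SARS2, the mitochondrial seryl transfer RNA synthetase, which had a log2 fold change of -0.15. MRPL47 starts 77 bases from NDUFB5, a subunit of respiratory complex I, at log2 fold changes of -0.08 and -0.32. Of the 9 neighbour entries that were tested, 8 were lower as fitted, where 43.1% of all genes tested were, and none was called. These entries include MRPL46 and MRPS11 themselves, which are already counted among the lower members of the family.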

How the data were processed

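RNA-seq of 6 jejunum samples was used, 3 without and 3 after transport. Per the file headers, the authors deposited for 24358 genes a whole-number count per gene and library without normalization, and an FPKM computed by the authors, in which 0.0001 stands for a count of 0 and was read as 0. The aligner, counter, build and use of strand are not stated. Columns of the transport group carry another prefix than the labels and were matched by group and number, and no column with values per sample was left unmatched (0). Symbols come from the table, and 951 of 6907 bare identifiers took a symbol from a gene name reference, for the lists other than the family.

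Genes with at least 1 FPKM in at least 3 libraries (12012) were tested with edgeR's quasi-likelihood test (edgeR 4.0.16, R 4.3.3) on the counts, scaled by TMM, in a model of group alone, and p-values were adjusted over all of them (Benjamini-Hochberg). The common biological coefficient of variation was 0.473. Standard errors come from the quasi-likelihood F statistic, and 95% intervals use its degrees of freedom. DESeq2 1.42.0 and limma 3.58.1 on log2(FPKM + 1) and log2(FPKM + 0.1) were alternatives, beside other scaling, other filters, a replicate block and left-out libraries.

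The members and lists were chosen with earlier results of these data known. Named genes are the 6 of smallest p per direction, the 6 highest in FPKM, a fixed set by role and up to 4 genes of smallest p per list. Further genes were chosen after their values were seen (MRPS14, MRPS26, MRPL28, MRPL34, MRPL57, ANPEP, SI, LYZ and the other myeloid markers, CD79B, MRRF, MTFMT, FABP6 and the other ileal enterocyte markers, NME3, the other overlapping genes and the neighbours). The lists hold 19 sets, of which those for other cell types were used as markers. Median log2 fold changes of the tested markers were -0.97 for enterocytes (10 genes), 2.52 for ileal enterocytes (3), -1.55 for crypt and stem cells (5) and 0.75 for the cell cycle (8). They were -0.93 for goblet cells (5), 1.26 for B and plasma cells (4), 0.96 for T and NK cells (8) and 0.17 for myeloid cells (6). For smooth muscle the median was -0.16 (8), for fibroblasts 0.01 (6) and for endothelium -0.19 (4). Enteric neurons and glia were at 0.43 (2) and red blood cells at 1.97 (1). Summed ileal enterocyte and B and plasma cell markers were 4431 and 2976 CPM in transport 3 and at most 172 and 988 CPM elsewhere. With the cell cycle markers, also highest there, those medians lean on that library.

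For each replicate number, the control and transport deviations from their group means had a correlation across genes of 0.217, 0.111 and 0.187. Between unlike numbers the correlation ran from -0.261 to 0.101. Deviations within a group are tied to each other, so these values cannot settle whether samples were paired. The labels state no pairing, and the replicate block was fitted only as an alternative. No 2 libraries held identical counts.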

Additional observations from a re-analysis of the deposited data

How the results depend on the processing

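No member was called in any of the 14 other settings of the fit, where the smallest adjusted p of a member was 0.377 (DESeq2). With the replicate block the count of called members stayed at 0, 52 of 63 were lower as fitted and the median was -0.22. It called 2 genes of the table, the same number as the main fit, and whether they were the same genes was not compared. Over all genes, DESeq2 called 27 higher and 23 lower, limma with either pseudocount called 1 higher, as did the stricter filter (mean FPKM 5 or more) and the fit without both control 2 and transport 3. With single libraries left out, 0 to 2 genes were called higher and 0 to 1 lower. The members lower as fitted then numbered 47 to 55, and their median ran from -0.36 to -0.14. Members lower without overlap between the groups, a count that leaving out libraries cannot lower, numbered 6 to 26. That last count was 11 without both control 2 and transport 3. Without members that overlap an expressed gene, an alternative chosen after seeing the data like the counts without overlap, 27 of 34 were lower as fitted, since fewer genes were counted. With libraries left out or other settings of the fit, the median of the members minus that of all genes was -0.43 to -0.13. Scaling moves both alike.

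Of 334 values of the 24 named members under other settings, 320 kept their direction and 14 reversed, none of them past the threshold in either direction. Without both control 2 and transport 3, the log2 fold changes of MRPL12 and MRPS18A were 0.13 each, of MRPL3 -0.0320, of MRPS30 -0.0339 and of MRPS7 0.0555. With single libraries left out, MRPL12 ran from -0.65 to 0.0466, MRPS18A from -0.36 to 0.0700, MRPS22 from -0.25 to 0.00435, MRPL3 from -0.0726 to 0.44, MRPL49 from -0.0075 to 0.41, MRPL54 from -0.11 to 0.34, MRPS30 from -0.27 to 0.29 and MRPS36 from -0.27 to 0.53. The cause was not tested. MRPS34 ran from -0.94 to -0.65. The lowest count of a member in any library was 415, and counting error was not tested apart from the spread between libraries.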
